A study of Mus musculus with 2 samples.

Results

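The receptors and ligands of the tumour necrosis factor (TNF) superfamily were followed in CD4 T cells activated with antigen-presenting cells (APC) that did or did not carry an OX40 ligand (OX40L) transgene. Members were the genes with a symbol beginning in Tnfrsf or Tnfsf, together with Tnf, Lta, Ltb, Ltbr, Fas, Fasl, Cd27, Cd40, Cd40lg, Cd70, Ngfr, Eda, Eda2r and Edar. OX40 itself, Tnfrsf4, and its ligand, Tnfsf4, were left out, since they are the pair that the experiment addresses. This gave 40 members of 17097 genes with a value, read by 69 of 45141 probe sets. The OX40L-Tg APC group was 1 array of naive, Foxp3-negative CD4 T cells from C57/Bl6 mice 6 weeks old with a Foxp3-eGFP reporter, activated with APC from OX40L-Tg mice and soluble anti-CD3 antibody over 48 hours. The Wt APC group was 1 array of such T cells activated in the same way with APC from wild type B6 mice. In both groups the APC were spleen cells without CD3-positive cells, treated with mitomycin C at 50 ug/ml, and living CD4 T cells were sorted before RNA was taken. The labels give neither the promoter of the transgene nor the number of mice behind an array. The question was which transcripts of CD4 T cells differ when the APC carry the OX40L transgene during activation.

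Ligands of the TNF superfamily are mostly trimers on the cell surface, and their receptors fall into those that recruit TRAF adaptors and those with a death domain. TRAF adaptors lead to NF-kB and MAP kinases, and death domains can lead to caspases. In CD4 T cells, members such as CD27, 4-1BB and GITR act as costimulators beside OX40, whereas Fas and its ligand take part in the death of activated cells, and lymphotoxins shape lymphoid tissue.

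With no replicate, no difference could be tested, and the spread from culture to culture or mouse to mouse is unknown. Values are linear intensity units, and a difference is the log2 value with OX40L-Tg APC less that with Wt APC. The arrays had medians of 14.7 units each, and their log2 values correlated with r = 0.993 over all probe sets. A gene was above the floor if it reached that median on at least 1 array, and above background on an array if it reached there the 95th percentile of a list of genes of other organs, which was 41.9 units on the OX40L-Tg APC array and 34.7 units on the Wt APC array. Where several probe sets of a gene were above background on both arrays, their differences had a pooled SD of 0.12 within a gene (2898 genes). This is scatter within an array and not between cultures. The 52 array control probe sets above background on both arrays differed by -0.52 to 0.74, with a median of 0.16. Many of the differences given below lie within that range. T cell markers were bright on both arrays, at 611 to 4642 units for 10 genes. The extraction protocol in the labels names adipose tissue, but the 4 adipocyte markers read between 8.09 and 18.3 units on both arrays, below background. Intensities of different probe sets are not comparable as amounts, so no gene's level is read against another's. Sums over marker lists, given below, are weighted towards their brightest probe sets and are no measure of cell numbers.

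Of the 40 members, 29 were above the floor, 21 above background on at least 1 array and 19 on both. Among the 19, Cd27, Tnfsf11 and Ltb were lower with OX40L-Tg APC by 1.5-fold or more, which makes 3 members beside 2.62% of all 7897 genes above background on both arrays. In the other direction 1 member passed 1.5-fold, Cd40, beside 3.48% of those genes. At 2-fold, 1 of the 19 was lower, Cd27, and 0 were higher, beside 0.785% and 1.41% of those genes. The median difference was 0.07 over the 19 members and 0.02 over all genes above background on both arrays, but the members' median had no settled sign, at -0.02 over the 21 above background on at least 1 array and -0.28 over the 14 above the 75th percentile of an array. Measured differences were also counted over everything above the floor, where a value below background on 1 or both arrays makes a size no fold. By that count 4 members reached 1.5-fold downwards and 3 upwards, beside 3.36% and 3.85% of all 10541 genes above the floor, and 2 reached 2-fold downwards and 1 upwards, beside 1.17% and 1.56%. The members it adds are Tnfsf10, below background with OX40L-Tg APC, and Tnfrsf8 and Tnfrsf10b, below background on both arrays. In all, 3 members passed the floor only through the OX40L-Tg APC array, Tnfrsf8, Tnfrsf10b and Tnfrsf14, and 2 passed the background level only through the Wt APC array, Tnfsf10 and Tnfrsf22.

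**Figure D1:**
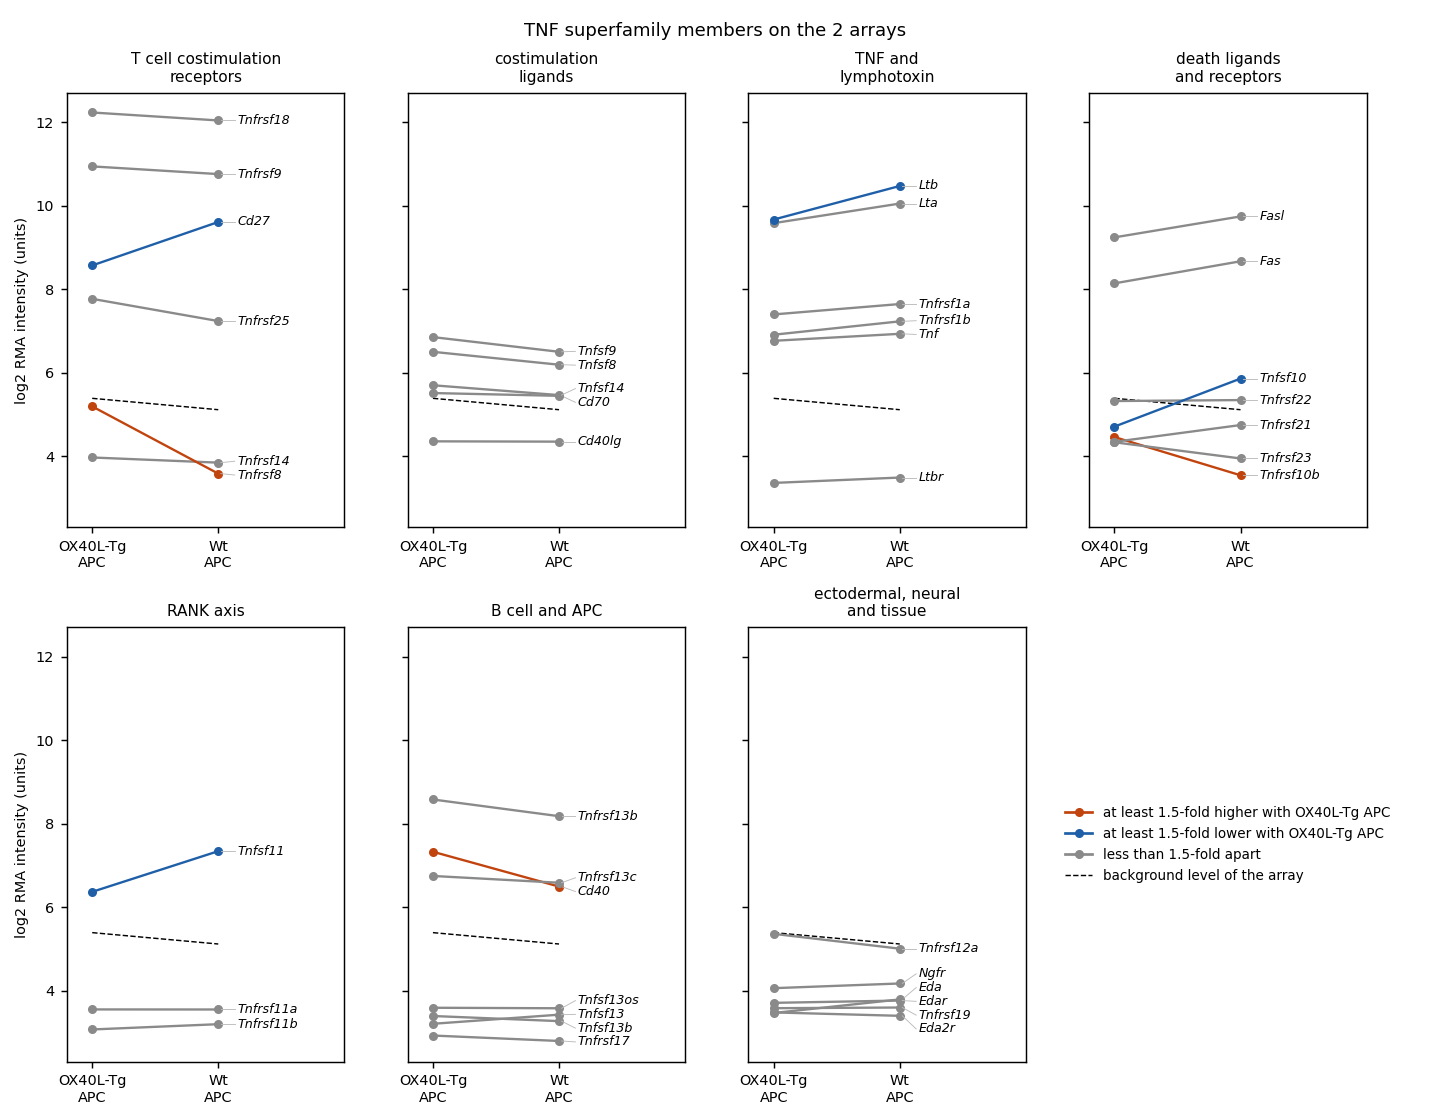
Log2 intensity of the 40 members, in panels by role, with the OX40L-Tg APC array left and the Wt APC array right; each line is 1 gene and the dashed line joins the background levels of the arrays. All 5 TNF and lymphotoxin genes above background slope up towards the Wt APC array, whereas the 4 costimulation ligands above background slope down towards it.

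The members whose measured value was lower by at least 1.5-fold, and above background on at least 1 array, are shown with their promoters, as the 300 bases from 250 before to 50 after the annotated start in the RefSeq table of the mouse build GRCm38.p6, read 5′ to 3′ along the gene. Lower case is used throughout except for a kB motif, in capitals. The kB motif here is 1 pattern of letters to which NF-kB binds, and not every such site. Ltb lies at chr17:35194257-35194556 on the plus strand, Cd27 at chr6:125236978-125237277 on the minus strand, Tnfsf11 at chr14:78307994-78308293 on the minus strand and Tnfsf10 at chr3:27316827-27317126 on the plus strand.
Ltb: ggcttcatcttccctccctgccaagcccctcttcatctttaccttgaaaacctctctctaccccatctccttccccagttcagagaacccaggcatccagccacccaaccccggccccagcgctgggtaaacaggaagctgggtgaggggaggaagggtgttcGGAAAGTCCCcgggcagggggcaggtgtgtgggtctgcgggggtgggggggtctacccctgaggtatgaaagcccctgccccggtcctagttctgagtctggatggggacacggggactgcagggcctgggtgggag
Cd27: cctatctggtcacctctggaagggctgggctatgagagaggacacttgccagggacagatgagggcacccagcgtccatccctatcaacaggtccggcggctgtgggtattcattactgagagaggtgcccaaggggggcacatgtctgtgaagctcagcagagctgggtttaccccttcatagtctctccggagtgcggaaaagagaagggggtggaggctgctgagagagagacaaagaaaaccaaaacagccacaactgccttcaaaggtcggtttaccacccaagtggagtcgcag
Tnfsf11: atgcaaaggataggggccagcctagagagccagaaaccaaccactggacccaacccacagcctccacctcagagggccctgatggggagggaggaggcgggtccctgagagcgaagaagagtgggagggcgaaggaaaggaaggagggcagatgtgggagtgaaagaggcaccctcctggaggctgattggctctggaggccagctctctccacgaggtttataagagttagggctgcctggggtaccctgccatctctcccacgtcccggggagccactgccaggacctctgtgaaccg
Tnfsf10: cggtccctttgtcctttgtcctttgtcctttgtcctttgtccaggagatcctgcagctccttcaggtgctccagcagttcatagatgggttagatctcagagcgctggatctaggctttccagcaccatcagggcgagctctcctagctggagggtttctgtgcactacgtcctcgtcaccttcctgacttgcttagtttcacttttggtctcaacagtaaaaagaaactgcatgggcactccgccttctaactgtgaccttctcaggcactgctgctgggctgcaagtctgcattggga

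Of the 40 members, 32 had such a window in the table. Cd40, Cd40lg, Cd70, Tnfsf9, Tnfrsf10b, Tnfrsf22, Tnfrsf11b and Tnfsf13os had none and could not be searched. The motifs searched on both strands were a kB motif, the AP-1 letters TGANTCA, bound by the Fos and Jun factor that T cell receptor signals induce, and an interferon response motif. AP-1 reads alike on either strand and was counted once per place. Each motif was searched as 1 pattern of letters, and sites with other letters were not searched. A window without a motif may therefore still hold a site for the same factor. The kB motif stood in the window of 1 member, Ltb, as GGAAAGTCCC at positions -87 to -78 from the start, which is the motif on the opposite strand, and in 0.411% of all 32851 windows. AP-1 letters stood in windows of 6 members, Fas, Tnfrsf8, Tnfrsf9, Tnfsf13, Tnfsf13b and Tnfsf14, and in 7.81% of all windows. The interferon response motif stood in windows of 4 members, Tnfrsf14, Tnfrsf17, Tnfrsf1b and Tnfsf13b, and in 3.44% of all windows. Some members have several windows, whereas the percentages are by window. By window, the kB, AP-1 and interferon response motifs stood in 1, 7 and 4 of the 36 windows of members. For Cd27, Tnfsf10 and Tnfsf11 none of the 3 motifs, as searched, is in the window printed. Whether these windows hold NF-kB sites with other letters was not tested. Of the members with AP-1 letters, Fas, Tnfrsf9 and Tnfsf14 were above background on both arrays, and differed by -0.53, 0.18 and 0.24.

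The receptors that costimulate T cells did not move together. Cd27, a TRAF-binding receptor that naive T cells already carry, read 381 units with OX40L-Tg APC and 783 units with Wt APC. This is a difference of -1.04, or 2.06-fold lower, from its only probe set, and 2.50% of genes above the floor differed by at least as much. Fewer T cells among those sorted and less RNA per cell cannot be told apart in such bulk samples. The 10 T cell markers with a value were lower in 9 cases, beside 44.1% of all genes above background on both arrays. The markers' median difference was -0.29, with a range from -0.67 for Cd3e to 0.09 for Cd2. They summed to 20241 units with OX40L-Tg APC and 23792 units with Wt APC, and their part in the Cd27 difference was not tested. Among other cell types, the haemoglobin gene Hba-a1 of red cells read 207 units with OX40L-Tg APC and 1161 units with Wt APC. This is a difference of -2.49, and the differences of its 3 probe sets ran from -2.49 to -0.997. Of the 6 erythroid markers, 3 had a value, and the other 2, Alas2 and Slc4a1, read below background on both arrays. The 3 summed to 232 units with OX40L-Tg APC and 1190 units with Wt APC, most of it Hba-a1. Their part in the lower values of Cd27 and other members was not tested. Cd70, the ligand of CD27, read 45.7 and 43.7 units with OX40L-Tg APC and Wt APC, just above background on both, a difference of 0.07.

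GITR and 4-1BB differed little. Tnfrsf18, which encodes GITR, read 4825 units with OX40L-Tg APC and 4228 units with Wt APC, a difference of 0.19. Tnfrsf9, which encodes 4-1BB, read 1971 units with OX40L-Tg APC and 1735 units with Wt APC, a difference of 0.18. Of its other 2 probe sets, 1 differed by 0.13 and the other was below background on both arrays. The ligand of 4-1BB, Tnfsf9, read 116 units with OX40L-Tg APC and 90.7 units with Wt APC, a difference of 0.35. Both genes of this pair were thus higher with OX40L-Tg APC, by less than 1.5-fold. The ligand of GITR, Tnfsf18, had no gene value and was not analysed here.

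Tnfrsf25, which encodes the death domain receptor DR3 that costimulates T cells, read 219 units with OX40L-Tg APC and 151 units with Wt APC, a difference of 0.53 or 1.45-fold, the largest positive difference among the costimulatory receptors above background. Tnfrsf8, which encodes CD30, a receptor of activated lymphocytes, read 36.6 units with OX40L-Tg APC and 12.0 units with Wt APC. Its measured difference was 1.61, but both values lay below background, so no fold is given. When the background level was set without the 2 brightest organ genes, it was 33.3 units with OX40L-Tg APC and 23.3 units with Wt APC. Tnfrsf8 then passed it only through the OX40L-Tg APC array, where it read higher. That level was chosen after seeing the data, so no fold is taken from it. The CD30 ligand gene Tnfsf8 was above background on both arrays, at 90.7 units with OX40L-Tg APC and 73.2 units with Wt APC, a difference of 0.31. Tnfrsf14, which encodes HVEM, read 15.7 and 14.4 units with OX40L-Tg APC and Wt APC, below background on both.

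The 4 costimulation ligands above background on both arrays, Cd70, Tnfsf8, Tnfsf9 and Tnfsf14, read higher with OX40L-Tg APC, 0 of them by 1.5-fold. Of all genes above background on both arrays, 55.9% read higher by any size. The differences of these ligands ran from 0.07 for Cd70 to 0.35 for Tnfsf9. Tnfsf14, which encodes LIGHT, a ligand of HVEM and of the lymphotoxin beta receptor, read 52.0 units with OX40L-Tg APC and 44.2 units with Wt APC, a difference of 0.24, and its other probe set was below background on both arrays. Cd40lg, the ligand by which helper T cells engage CD40, read 20.5 and 20.4 units with OX40L-Tg APC and Wt APC, below background on both arrays. Tnfsf15, the ligand of DR3, had no gene value and was not analysed here.

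TNF, the lymphotoxins and their receptors read lower with OX40L-Tg APC. All 5 of these genes above background on both arrays were lower, with a median of -0.32, whereas 44.1% of all such genes were lower by any size. The T cell markers were lower on the same arrays in 9 of 10 cases, with a median of -0.29, and their part in the values of this group was not tested. Ltb, which encodes lymphotoxin beta, the membrane anchor of the lymphotoxin trimer, read 816 units with OX40L-Tg APC and 1424 units with Wt APC. This is a difference of -0.80, or 1.75-fold lower, and it was the only difference past 1.5-fold in the group. Lta, which encodes lymphotoxin alpha, the soluble partner, read 768 units with OX40L-Tg APC and 1063 units with Wt APC, a difference of -0.47. Tnf read 109 units with OX40L-Tg APC and 122 units with Wt APC, a difference of -0.17.

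Ltb, Tnf and Lta lie next to each other on chromosome 17 with 0 protein-coding genes between neighbours in the RefSeq table, in that order along the chromosome. Their differences were of unequal size, from -0.80 to -0.17. The receptors of TNF and of soluble lymphotoxin alpha were lower too, by less than 1.5-fold. Tnfrsf1a, the TNF receptor with a death domain, read 169 units with OX40L-Tg APC and 200 units with Wt APC, a difference of -0.25. Tnfrsf1b, the TNF receptor without a death domain that activated and regulatory T cells carry, read 120 units with OX40L-Tg APC and 150 units with Wt APC, a difference of -0.32. Its other probe set read 29.8 units with OX40L-Tg APC, below background, and 41.0 units with Wt APC. Ltbr, the lymphotoxin beta receptor of stromal and myeloid cells, was below the floor on both arrays.

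Tnfsf9, Cd70 and Tnfsf14, likewise adjacent on chromosome 17, differed by 0.35, 0.07 and 0.24. On chromosome 6, Cd27 and Tnfrsf1a differed by -1.04 and -0.25, with Ltbr between them, below the floor. In the other 3 groups, Tnfrsf1b and Tnfrsf8, Tnfrsf22 and Tnfrsf23, and Eda and Eda2r, at least 1 member was below background on both arrays, and no direction is compared. In all, 15 members lay in 6 such groups, within 10 protein-coding genes of another member, a limit chosen after seeing the data.

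**Figure D2:**
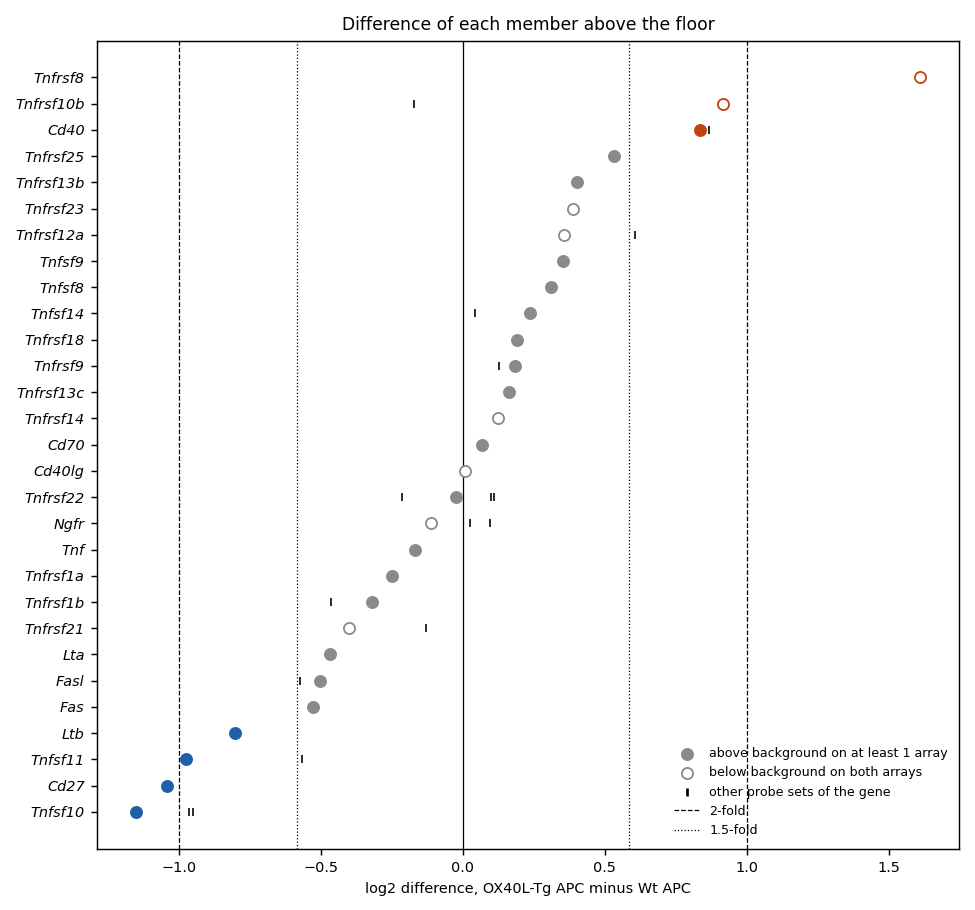
Difference of the 29 members above the floor (log2, OX40L-Tg APC minus Wt APC); circles are the probe set that stands for the gene, open where both arrays are below background, and ticks are its other probe sets. Cd27 and Tnfsf10 lie beyond the 2-fold line on the left, and Tnfrsf8, with an open circle since both its values are below background, beyond it on the right.

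Death ligands read lower with OX40L-Tg APC. Tnfsf10, which encodes TRAIL, read 26.2 units with OX40L-Tg APC, below background, and 58.1 units with Wt APC, so that it was at least 1.39-fold lower against the background level. Its measured difference was -1.15. Of its other 2 probe sets, 1 read 24.3 units with OX40L-Tg APC, below background, and 47.1 units with Wt APC, and the other was below background on both arrays. The mouse TRAIL receptor, Tnfrsf10b, was below background on both arrays, at 22.0 units with OX40L-Tg APC and 11.7 units with Wt APC. Its difference was 0.92 in a probe set shared between transcripts and -0.17 in the other, so its probe sets did not agree in direction.

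Fas and its ligand were lower by similar amounts. Fas, the death receptor that CD4 T cells carry after activation, read 283 units with OX40L-Tg APC and 408 units with Wt APC, a difference of -0.53. Fasl read 606 units with OX40L-Tg APC and 859 units with Wt APC, and its 2 probe sets differed by -0.50 and -0.57. Both stayed short of 1.5-fold, and 8.53% and 9.61% of genes above the floor differed by at least as much as Fas and Fasl. The NK marker Klrd1, on a list of 5 of which 3 were above the floor, read 19.7 units with OX40L-Tg APC and 78.7 units with Wt APC. The first of these values lay below background. Nkg7, the only NK marker above background on both arrays, read 155 units with OX40L-Tg APC and 178 units with Wt APC, a difference of -0.21. Ncr1, Klrb1c and Klra8 were below background on both arrays. The CD8 markers Cd8a, below background on both arrays, and Cd8b1 summed to 270.2 units with OX40L-Tg APC and 219 units with Wt APC. The 5 NK markers summed to 208 units with OX40L-Tg APC and 294 units with Wt APC, and their part in the values of Fasl and Tnfsf10 was not tested.

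The remaining receptors of the death group were low. Tnfrsf22, a decoy receptor for TRAIL in the mouse, read 40.0 and 40.7 units with OX40L-Tg APC and Wt APC, and its other 3 probe sets were below background on both arrays. Tnfrsf21, which encodes the death receptor DR6, and Tnfrsf23, a further mouse decoy receptor, were below background and differed by -0.40 and 0.39. Tnfrsf26 had no gene value and was not analysed here.

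Tnfsf11, which encodes RANKL, the ligand by which T cells can act on osteoclast precursors and dendritic cells, read 82.5 units with OX40L-Tg APC and 162 units with Wt APC. This is a difference of -0.97, or 1.96-fold lower, with -0.57 in its other probe set, which read 49.8 units with OX40L-Tg APC and 73.9 units with Wt APC. Both probe sets were above background on both arrays and lower with OX40L-Tg APC. Its receptor RANK, Tnfrsf11a, and its soluble decoy osteoprotegerin, Tnfrsf11b, were below the floor on both arrays.

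Receptors known best from B cells and APC were higher with OX40L-Tg APC. Cd40, the receptor by which T cell help reaches B cells and dendritic cells, read 160 units with OX40L-Tg APC and 90.0 units with Wt APC, a difference of 0.83 or 1.78-fold. Its second probe set differed by 0.87. Tnfrsf13b, which encodes TACI, read 382 units with OX40L-Tg APC and 290 units with Wt APC, a difference of 0.40. Tnfrsf13c, which encodes the BAFF receptor, read 107 units with OX40L-Tg APC and 95.9 units with Wt APC, a difference of 0.16. In this group all 3 receptors above background were higher, 1 of them past 1.5-fold, beside 55.9% of all genes above background on both arrays that were higher by any size and 3.48% by 1.5-fold.

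On the same arrays, 4 of the 5 B cell markers and all 8 MHC class II markers above background on both arrays were higher too. Of 12 B cell markers, 11 had a value, and they summed to 1032 units with OX40L-Tg APC and 760 units with Wt APC. Cd79b, a chain of the B cell receptor, read 313 units with OX40L-Tg APC and 166 units with Wt APC, a difference of 0.92, and Ms4a1, which encodes CD20, differed by 0.25. Blk, a B cell kinase, was the lower one, at 42.7 units with OX40L-Tg APC and 47.4 units with Wt APC. Pax5, Cr2, Fcrla, Ighm and Vpreb3, also on that list, were below background on both arrays. The 10 MHC class II markers summed to 4025 units with OX40L-Tg APC and 3025 units with Wt APC, with a median difference of 0.41 over the 9 above the floor. H2-Ob read 30.5 units with OX40L-Tg APC, below background, and 43.9 units with Wt APC, and Ciita, the class II transactivator, was below the floor on both arrays. Of 14 dendritic and myeloid markers, 12 had a value and 2 were above background on at least 1 array. Flt3, the only one above background on both, read lower, at 43.3 units with OX40L-Tg APC and 46.1 units with Wt APC. Tyrobp read 40.1 units with OX40L-Tg APC, below background, and 36.6 units with Wt APC. The 12, most of them below background, summed to 261 units with OX40L-Tg APC and 231 units with Wt APC. The part of these cell types in the values of Cd40, Tnfrsf13b and Tnfrsf13c was not tested. The ligands of TACI and of the BAFF receptor, Tnfsf13 (APRIL) and Tnfsf13b (BAFF), were below the floor on both arrays, as was Tnfrsf17, the plasma cell receptor BCMA.

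The 11 members below the floor on both arrays read between 6.93 and 13.8 units. They were Eda, Eda2r, Edar and Tnfrsf19, known from ectodermal organs, the RANK and lymphotoxin beta receptors and osteoprotegerin, Tnfrsf17, Tnfsf13, Tnfsf13b and the antisense transcript Tnfsf13os. Their differences lay between -0.33 and 0.13. Of the 8 members between the floor and background, Ngfr, the neurotrophin receptor, and Tnfrsf12a, the receptor of TWEAK, differed by -0.11 and 0.36. Tnfsf12, which encodes TWEAK, had no gene value and was not analysed here.

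**Figure D3:**
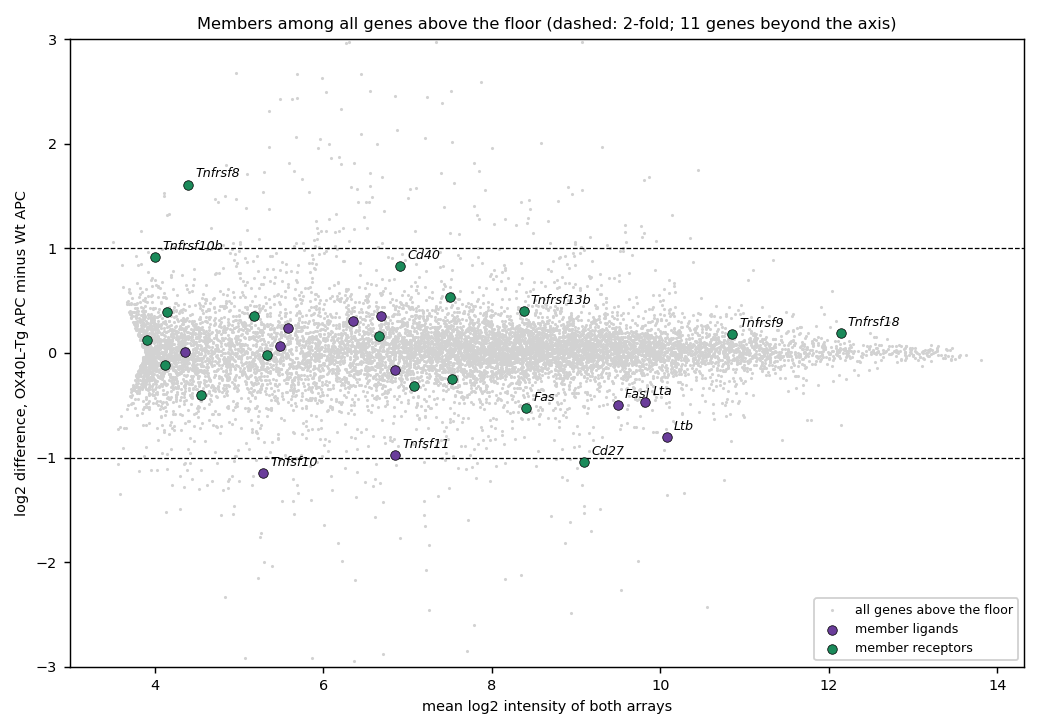
Difference (OX40L-Tg APC minus Wt APC, log2) against the mean log2 intensity of both arrays for all 10541 genes above the floor in grey, with member ligands in purple and member receptors in green; 11 genes lie beyond the axis. Cd27 lies at -1.04 and Ltb at -0.80, and Tnfrsf18 and Tnfrsf9 at 0.19 and 0.18.

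Ligands and receptors were also set side by side. Of the 9 ligands above background on both arrays, 5 were lower and 4 higher with OX40L-Tg APC, beside 44.1% lower and 55.9% higher among all such genes. Of the lower ligands 2 passed 1.5-fold, Tnfsf11 and Ltb, and the others were Fasl, Lta and Tnf. Of the 10 receptors above background on both arrays, 4 were lower and 6 higher. The median difference was -0.17 for these ligands and 0.17 for these receptors, beside 0.02 over all such genes. With 1 array for each group, this split was not tested.

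The genes that carry the signals of these receptors were compared from a list of 54, of which 48 had a value and all 48 were above background on both arrays. With OX40L-Tg APC, 5 of them passed 1.5-fold upwards and 0 downwards, beside 3.48% and 2.62% of all genes above background on both arrays. Their median was 0.15, with 33 higher and 15 lower by any size, and 55.9% of all such genes were higher by any size. Tnfaip3, which encodes A20, a deubiquitinase that curbs signals of TNF receptors, read 1291 units with OX40L-Tg APC and 598 units with Wt APC, a difference of 1.11. Cflar, the caspase-8-like inhibitor of death receptors, read 736 units with OX40L-Tg APC and 442 units with Wt APC, a difference of 0.74. Map3k8, a kinase upstream of ERK, and Nfkb2, the precursor of the noncanonical NF-kB subunit, differed by 0.69 and 0.68, and Tnip2, a partner of A20, by 0.62.

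Among the signalling genes with lower values, the largest differences were in adaptors. Traf3ip3, an adaptor that binds TRAF proteins, read 382 units with OX40L-Tg APC and 567 units with Wt APC, a difference of -0.57. Traf5, a TRAF of CD27 and OX40, read 126 units with OX40L-Tg APC and 170 units with Wt APC, a difference of -0.44. Traf3ip2, the IL-17 receptor adaptor Act1, and Tradd, the adaptor of TNF receptor death domains, differed by -0.42 and -0.32. All 9 NF-kB subunits and inhibitors with a value were higher by some amount, between 0.03 and 0.68 (8 of 9 after a lowess correction, which turned Nfkbid, at 0.03, below 0), beside 55.9% of all genes above background on both arrays. The proteases that shed TNF family proteins, Adam10 and Adam17, differed by -0.23 and -0.11.

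**Figure D4:**
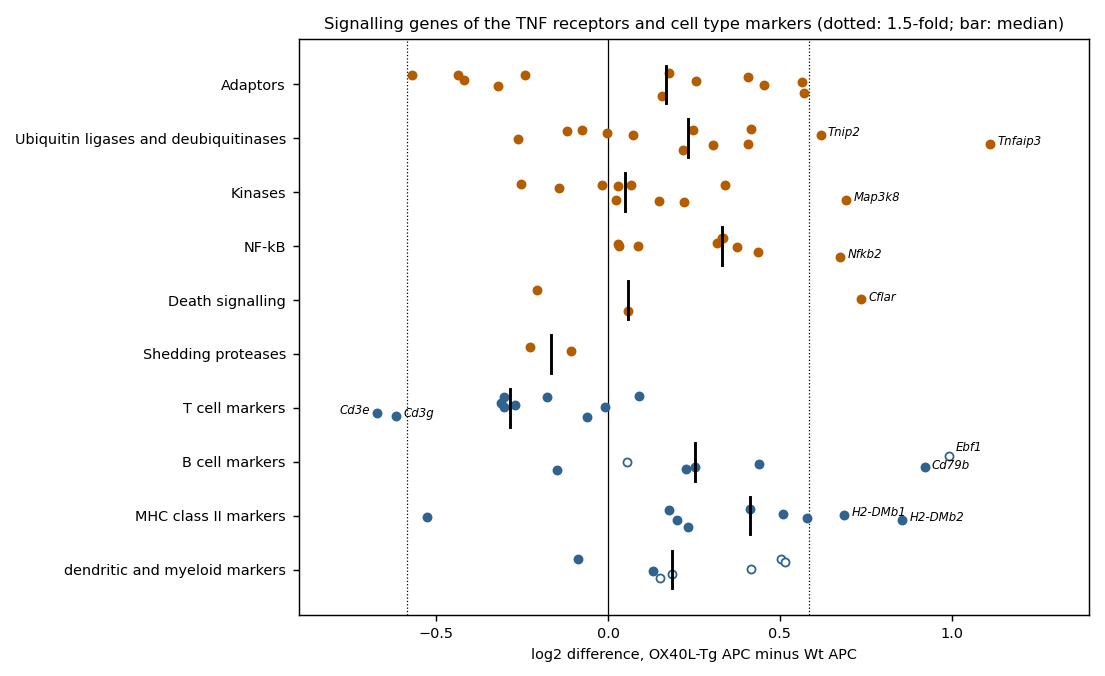
Difference (OX40L-Tg APC minus Wt APC, log2) of each gene above the floor in the groups of signalling genes (orange) and cell type marker lists (blue), open where both arrays are below background, with a bar at the median of the list. The NF-kB group lies to the right of 0 for all 9 genes (8 after a lowess correction), T cell markers lie to its left for 9 of 10, and MHC class II markers have a median of 0.41.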

How the data were processed

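RNA was hybridised to 2 Affymetrix mouse arrays (HT_MG-430 PM), 1 for each kind of APC. The file deposited by the authors holds linear intensities for each probe set, from 4.69 to 14686 units, which come from RMA according to the submitters' processing notes. Its version and the arrays normalized together are not given in the sources used here. RMA equalises arrays and shrinks low intensities, which understates differences that involve low values.

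Log2 was taken. The platform annotation paired 28898 probe sets with 1 gene symbol, 551 with several (not used), and 15692 were not listed. All 40 members matched the RefSeq gene table of GRCm38.p6, with 0 symbols changed. A gene took its probe set with the highest mean log2 value. Background came from 44 of 54 organ-restricted genes, of which Tg and Tff1 read highest, at 4491 and 100 units with OX40L-Tg APC and 3302 and 105 units with Wt APC. The limits of 2-fold and 1.5-fold are sizes, not tests. Full values were given for members past 1.5-fold and above background, the 8 with the highest mean intensity (a choice of what to print, not a ranking of amounts) and their partners. Values of other members were added after they were seen. Counts over genes above background on both arrays were also added after seeing the data. Members and lists were chosen with earlier results of these data known. Calculations used Python 3.11.15, numpy 2.4.6, pandas 2.3.3, matplotlib 3.10.9 and, for a lowess curve of span 0.3, statsmodels 0.14.6. The code was checked on simulated data with large changes in bright genes and little scatter. That check does not show the precision for these arrays or for members of low intensity. The number of arrays limits the precision.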

Additional observations from a re-analysis of the deposited data

How the results depend on the processing

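No paired analysis was possible because each group is 1 array, and no array could be left out. With an offset of 16 units before log2, 0 members passed 2-fold upwards and 1 downwards. With the floor at the 75th percentile of each array, which kept 14 members, 0 passed 2-fold upwards, 1 passed it downwards and 1 passed 1.5-fold upwards, and the members' median was -0.28. With the floor at the background level, which kept 21 members, 0 passed 2-fold upwards and 1 passed 1.5-fold upwards, and the median was -0.02. With only genes above background on both arrays, added after seeing the data, 19 members were kept, 0 passed 2-fold upwards and 1 downwards, and 1 passed 1.5-fold upwards. These 3 stricter limits leave out Tnfrsf8 and Tnfrsf10b by construction. After a lowess correction 1 signalling gene passed 1.5-fold downwards, and 3 members passed 2-fold downwards, against 2 without it. With the mean of probe sets, shared probe sets left out or the offset, 2 members passed 1.5-fold upwards, against 3 without these changes. Leaving out probe sets shared between transcripts turned Tnfrsf10b to -0.17, which is its other probe set. Of 110 values for 22 members over 5 alternatives (mean of probe sets, shared probe sets left out, median centring, lowess, offset), 102 moved by less than the pooled SD between probe sets of a gene and 8 by more. Most of the 110 could not move further. Median centring shifted every gene by 0.0058 and lowess by -0.0099 to 0.031, below that SD of 0.12. The 2 probe set alternatives cannot change a member with 1 probe set. The count is therefore no measure of how firm the differences are. Of the 110, 4 had the other sign, in 3 members below background on both arrays: Tnfrsf10b, Tnfsf13b at -0.02 with the mean of probe sets, and Tnfrsf11a at -0.11 with that mean and -0.0041 after median centring. Without a floor, or with the background level taken without the 2 brightest organ genes, an alternative added after seeing the data, the counts at 2-fold and 1.5-fold stayed within 1.5 times. Low intensity limits the 19 members below background on both arrays, for which no difference can be read as a change in transcripts.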
